A study of Mus musculus with 96 samples.

Results

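Gastrocnemius, the large muscle of the calf, was compared between mice returned from a high-fat to a standard diet (diet reversal, DR) and mice kept on the high-fat diet (HFD). The 14 libraries were those labelled as GASTROC with treatment DR (7) or HFD (7), out of 49 muscle libraries and 96 in the whole series, which also holds sciatic nerve. A gene was tested where its deposited log2 value reached 3.32, the log2 of 10, in at least 6 of the 14 libraries, which 15430 of the 20940 genes in the muscle files did. All mice were singly housed C57BL/6J males (genotype C57BL/6 in the sample labels) assigned to a diet at 12 weeks of age and killed at 26 weeks. HFD mice ate a lard-based diet with 60 kcal% fat throughout. DR mice ate it until week 18 and then a standard diet (SD) with 10 kcal% fat for 8 weeks. Beside them, SD mice (8 muscle libraries) stayed on the standard diet, KDI mice (7) were switched at week 18 from the high-fat to a cocoa butter-based ketogenic diet with 90 kcal% fat, and EX mice (7) stayed on the high-fat diet and had a running wheel from week 18. KD mice (7) ate the ketogenic diet throughout, and KDI_EX mice (6) had both the switch to it and the wheel. Only males were studied.

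Long high-fat feeding enlarges fat depots, including the adipocytes that lie between muscle fibres and in the sheaths around muscle. Adipocytes and the macrophages among them release leptin, haptoglobin and serum amyloid proteins, and fatty acids that reach the fibre induce genes of lipid uptake, storage and oxidation through nuclear receptors of the PPAR family. Values from whole muscle mix fibres with these other cells, and fewer cells of a type cannot be told apart from less RNA per cell.

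The labelled tissue was checked on its markers, and 12 skeletal muscle genes all lay between 14.4 and 20.8 in each of the 14 libraries. Library medians ran from 6.89 to 7.16, and no library pair correlated above 0.9986. DR replicate 1 stood apart, with a score of 37.1 on the first principal component of the 49 muscle libraries (24.6% of the variance). The other 13 libraries lay between -17.7 and 15.6. Among the other regimens KDI_EX replicate 6 was at -33.9 and KDI_EX replicate 1 at 28.7. DR replicate 1 had the lowest DR value of many lists, those of macrophage, fibroblast, erythrocyte and extracellular matrix genes among them. Results on these lists, and on several of the others, are given with and without it. Read counts and depth are unknown, and the number of libraries limits the precision.

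Short stretches of promoter are shown for 3 genes, of which the first is Saa3, the gene with the smallest p. The others are Tgtp1 and Gbp5, interferon-inducible genes that did not pass the test but whose DR and HFD libraries did not overlap. Each stretch is the 250 bases before the RefSeq transcription start (GRCm38.p6), written in the direction of the gene. Saa3 is read from the minus strand at chr7:46715677-46715926, Tgtp1 from the minus strand at chr11:48992247-48992496 and Gbp5 from the plus strand at chr3:142496684-142496933. Capitals mark matches on either strand to TTCNNNGAA (the letters of a GAS, bound by STAT factors), GAAA repeated after any 2 bases (an ISRE-like element, bound by interferon regulatory factors) or TTGCNNAA (a C/EBP-like element).

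Saa3: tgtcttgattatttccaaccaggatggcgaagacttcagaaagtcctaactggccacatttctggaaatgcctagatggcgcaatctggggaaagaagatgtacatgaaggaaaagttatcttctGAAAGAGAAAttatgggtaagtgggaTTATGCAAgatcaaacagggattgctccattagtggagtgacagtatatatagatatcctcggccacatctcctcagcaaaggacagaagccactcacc

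Tgtp1: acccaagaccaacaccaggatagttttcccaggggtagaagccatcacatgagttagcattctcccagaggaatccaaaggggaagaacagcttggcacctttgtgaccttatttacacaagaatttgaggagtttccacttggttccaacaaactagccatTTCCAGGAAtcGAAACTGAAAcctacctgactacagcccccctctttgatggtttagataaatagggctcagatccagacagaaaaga

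Gbp5: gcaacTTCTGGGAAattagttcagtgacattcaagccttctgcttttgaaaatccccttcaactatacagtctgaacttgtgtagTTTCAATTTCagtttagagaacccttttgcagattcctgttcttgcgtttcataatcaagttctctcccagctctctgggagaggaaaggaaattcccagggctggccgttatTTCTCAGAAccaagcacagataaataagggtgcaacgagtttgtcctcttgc

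In the Saa3 window GAAAGAGAAA, 125 to 116 bases before the start, matches the ISRE-like letters, and TTATGCAA, at 99 to 92 bases, matches the C/EBP-like letters on the other strand. The Tgtp1 window holds TTCCAGGAA at 88 to 80 bases and GAAACTGAAA at 77 to 68 bases. Over the 32851 windows of the same length in the RefSeq table, 7.02% held the GAS letters, 2.98% the ISRE-like letters and 9.56% the C/EBP-like letters. Windows of other genes were searched as well. Those of Tph2, Oxtr, Lrg1 and Ubd held no match, that of Ucp3 held the GAS letters and that of Lep the C/EBP-like letters. All these matches describe letters and were not tested as binding sites.

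After 8 weeks back on the standard diet 4 genes were lower than under continued high-fat diet at an adjusted p under 0.05, which is 0.0259% of the genes tested, and none was higher. The 4 that fell were the acute-phase genes Saa3 and Lrg1, Tph2, whose product makes the serotonin precursor, and Oxtr, the oxytocin receptor. The test was limma's moderated test over all 49 muscle libraries with Benjamini-Hochberg adjustment. At an unadjusted p under 0.05 there were 766 genes (4.96%), 457 higher (2.96%) and 309 lower (2%) in DR. Over all genes tested the median difference was 0.01 on the log2 scale, and 52.7% of the differences were positive. Nothing in the labels says that each library is a separate mouse, so the p-values measure the spread between libraries.

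**Figure D1:**
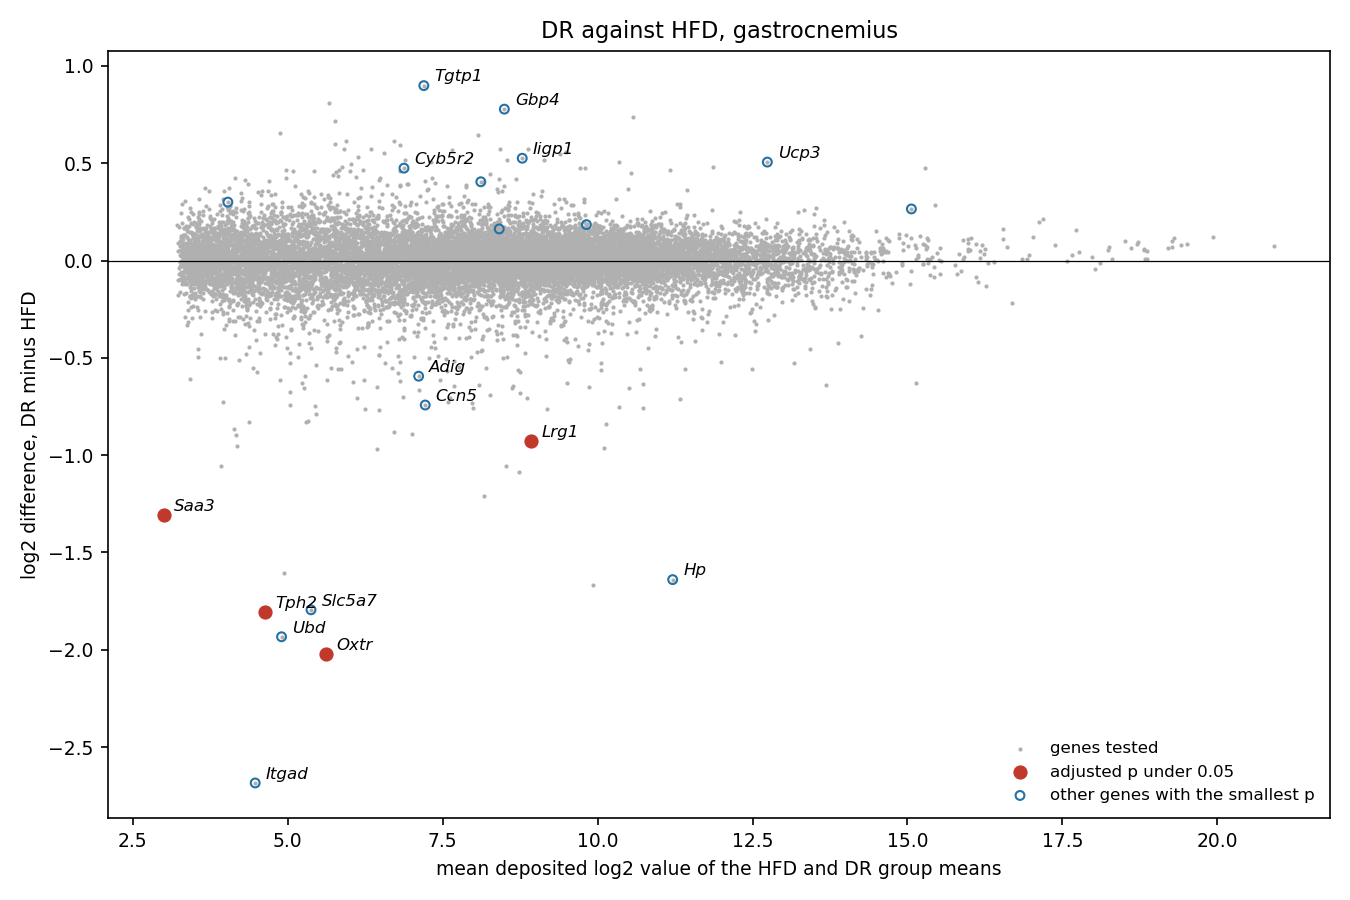
Each point is 1 of the 15430 genes, with the mean deposited log2 value of the DR and HFD groups on the x axis and the log2 difference DR minus HFD on the y axis. The 4 red points, with an adjusted p under 0.05, all lie below 0, and the open blue points are the other genes with the smallest p in each direction.

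Saa3 encodes serum amyloid A3, an acute-phase protein made outside the liver by adipocytes and macrophages (GRCm38 chr7:46711998-46715700). In HFD muscle its log2 value had a minimum of 2.49, a median of 3.71 and a maximum of 4.50. DR values lay between 2.29 and 2.51 with a median of 2.33. The groups met only at HFD replicate 5, which was below DR replicate 6. The difference was -1.31 ± 0.18 (SE, n = 7 and 7; adjusted p = 3.30e-05, limma). Saa3 passed the filter on low values through 6 HFD libraries and no DR library. A gene that reached the threshold in no DR library had to reach it in at least 6 HFD libraries to be tested. With no filter the adjusted p of Saa3 was 5.12e-05 (limma).

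Lrg1, on chromosome 17, encodes leucine-rich alpha-2-glycoprotein, which is secreted in inflammation and acts on blood vessels. Its HFD values ran from 8.61 through a median of 9.58 to 10.05, and its DR values from 8.06 through 8.43 to 8.90. HFD replicates 5 and 7 lay inside the DR range and the other 5 above it. Lrg1 fell by 0.93 on the log2 scale (SE 0.19, n = 7 and 7; adjusted p = 0.0454, limma).

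Tph2, on chromosome 10, encodes tryptophan hydroxylase 2, the rate-limiting enzyme of serotonin synthesis in neurons. HFD values spread from 3.70 to 6.89 around a median of 5.91, while DR values stayed between 3.51 and 3.97 around 3.72. HFD replicate 7 was the only high-fat library within the DR range. The difference was -1.80 ± 0.34 (SE, n = 7 and 7; adjusted p = 0.0309, limma).

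Oxtr, on chromosome 6, encodes the receptor of the hormone oxytocin. Its HFD libraries ran from 4.94 through a median of 7.28 to 7.70, and its DR libraries from 4.34 through 4.43 to 5.13. HFD replicates 5 and 7 again fell inside the DR range. Oxtr was lower in DR by a log2 difference of -2.02 ± 0.41 (SE, n = 7 and 7; adjusted p = 0.0454, limma).

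The spread of these genes was itself unequal. The SD over HFD libraries was 0.63 for Saa3 against 0.08 in DR, 1.17 against 0.17 for Tph2, 1.19 against 0.33 for Oxtr and 0.57 against 0.32 for Lrg1. The model used 1 variance per gene over 7 regimens. When the 14 HFD and DR libraries were fitted alone, no gene passed: the adjusted p of Saa3 was 0.0985, of Oxtr 0.276, of Tph2 0.312 and of Lrg1 0.486 (limma).

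Saa3 kept its call without any 1 of the 14 libraries (difference -1.50 to -1.17, highest adjusted p 0.00029). Tph2, Oxtr and Lrg1 each kept theirs in 3 of those 14 fits (limma), with differences of -2.11 to -1.58 for Tph2, -2.30 to -1.84 for Oxtr and -1.06 to -0.81 for Lrg1 over the 14. Those 3 fits left out HFD replicate 5, HFD replicate 7 or DR replicate 5, and gave 9, 8 and 4 genes lower in DR. Leaving out any of the other 11, DR replicate 1 among them, left Saa3 alone. The filter on low values was not applied again in these fits. With any 1 of the 6 HFD libraries that carried Saa3 through the filter left out, Saa3 would not have passed it.

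**Figure D2:**
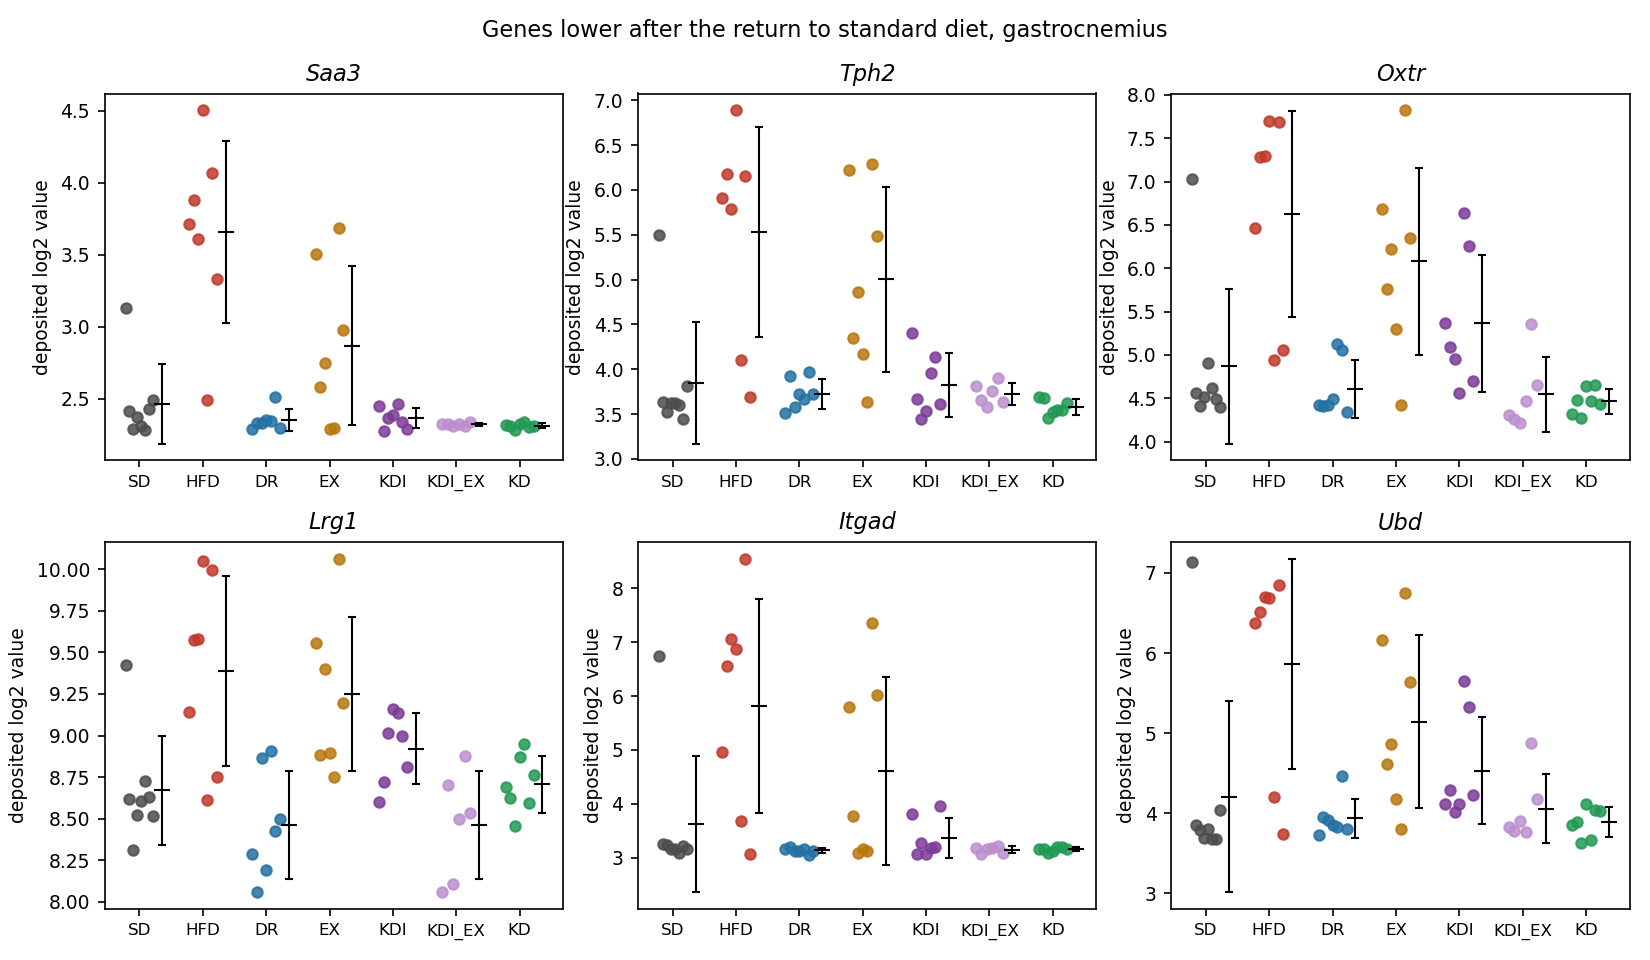
Deposited log2 values of Saa3, Tph2, Oxtr, Lrg1, Itgad and Ubd in each of the 49 muscle libraries (points), with the mean and SD of each regimen beside them in black. HFD and EX libraries are spread widely, DR, KD and KDI_EX libraries lie low and close together for Saa3, Tph2 and Itgad, and 1 SD library (replicate 1) lies far above the other SD libraries.

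The genes with the next smallest p among the lower ones did not pass the test, though several differed by more. Itgad, the integrin alpha D subunit of leukocytes, ran from 3.06 through a median of 6.55 to 8.55 in HFD, and from 3.05 through 3.13 to 3.19 in DR. Only HFD replicate 7 lay among the DR libraries. The difference was -2.68 ± 0.58 (SE; adjusted p = 0.0957, limma), and Itgad, like Saa3, entered the test through 6 HFD and no DR libraries.

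Ubd, which encodes the ubiquitin-like modifier FAT10, had HFD values of 3.74 to 6.85 with a median of 6.51 and DR values of 3.73 to 4.47 with a median of 3.85 (difference -1.93 ± 0.44 SE, adjusted p = 0.188). Slc5a7, the high-affinity choline transporter of cholinergic nerve endings, had a median of 6.92 (4.50 to 7.32) in HFD and 4.28 (3.94 to 5.25) in DR, a difference of -1.79 ± 0.42 SE at an adjusted p of 0.238. For both genes 5 HFD libraries lay above every DR library, and replicates 5 and 7 did not. Hp, the haemoglobin-binding plasma protein haptoglobin, had a median of 12.35 (9.99 to 13.33) in HFD and 10.40 (9.63 to 11.42) in DR. HFD replicates 5 and 7 lay inside the DR range. The Hp difference was -1.64 ± 0.41 SE at an adjusted p of 0.331.

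Ccn5, a secreted matricellular protein also known as WISP2, ran from 7.03 through 7.52 to 8.0 in HFD and from 6.50 through 6.74 to 7.43 in DR (difference -0.74 ± 0.20 SE, adjusted p = 0.400). Adig, the adipocyte gene adipogenin, ran from 6.90 through 7.38 to 7.77 in HFD and from 6.18 through 6.86 to 7.20 in DR (difference -0.59 ± 0.16 SE, adjusted p = 0.400). HFD replicates 5 and 7 were the lowest HFD libraries for each of the 10 genes described so far (2 of 7 libraries, 10 of 10 genes).

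Itgad lies directly beside Itgax on chromosome 7 (chr7:128154376-128223816 and chr7:128129547-128150657). Itgax encodes CD11c, the integrin of dendritic cells and of macrophages in obese fat. Its HFD values ran from 4.98 through 5.44 to 5.87 and its DR values from 4.35 through 4.72 to 4.85, and the groups did not overlap. The difference of -0.68 ± 0.20 SE had an adjusted p of 0.576. Genes whose 7 DR libraries all lay below the 7 HFD libraries numbered 5 (0.0324% of those tested), among them Itgax, Chrna2, Fabp3-ps1 and BC048679. The number that would do so with no difference between the regimens was not computed. Chrna2, a nicotinic acetylcholine receptor subunit, differed by -0.88 ± 0.28 SE (adjusted p = 0.666). All but Itgax were named after their values were seen, and Fabp3-ps1, a pseudogene of Fabp3, may share reads with it.

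**Figure D3:**
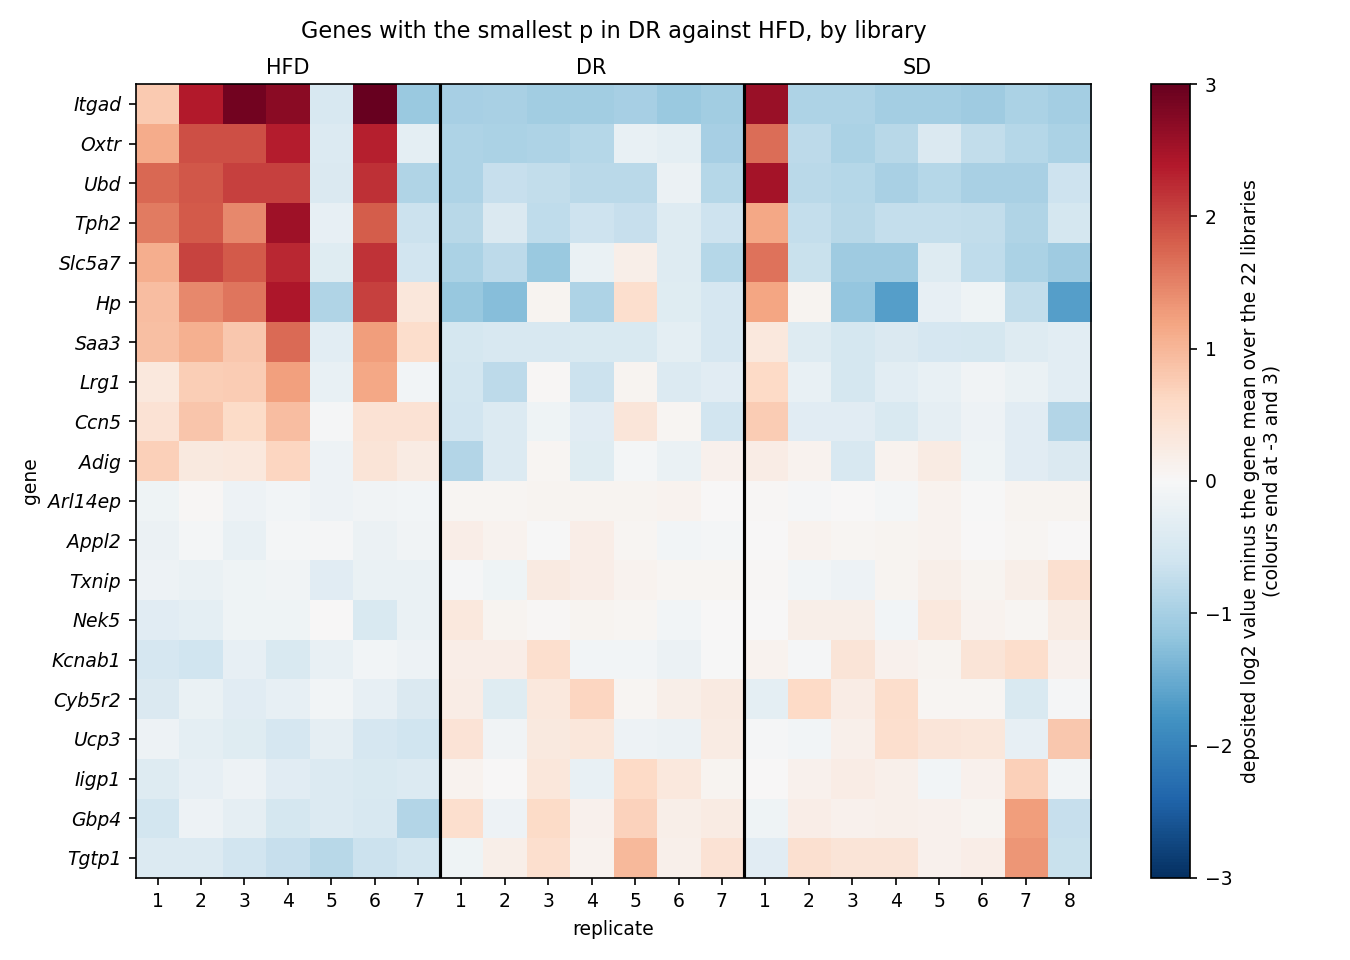
Deposited log2 values of the 10 genes with the smallest p in each direction, 1 row a gene and 1 column a library (HFD 7, DR 7, SD 8), each row centred on its mean over these 22 libraries (red above, blue below). HFD replicates 5 and 7 look like DR libraries for the lower genes in the upper rows, and SD replicate 1 looks like an HFD library for most of them.

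Of the acute-phase and inflammatory genes 15 were tested. Saa3 and Lrg1 were called lower, against 0.0259% of all genes. In all 12 had a difference below 0 and 3 above, and the median was -0.30 against 0.01 over all genes. At an unadjusted p under 0.05 there were 6, all lower, against 2% of all genes. Without DR replicate 1, the lowest DR library of the list, the median was -0.24, with 12 again below 0. This list was chosen with earlier results of these data known, so the counts are no independent evidence of its direction. Beside those described, Orm1, the plasma carrier orosomucoid, differed by -0.97 ± 0.33 SE and Ccl8, a monocyte chemokine, by -0.63 ± 0.26 SE (adjusted p = 0.707 and 0.906). A list of 4 genes linked to obesity in earlier results of these data (Tph2, Oxtr, Itgad and Plppr4) had 4 lower. Of these 2 were called, against 0.0259% of all genes, and 52.7% of all differences were above 0. Itgad entered the test through HFD libraries only, which ties its direction to the filter. The counts are no independent evidence of the direction of this list. Plppr4, a lipid phosphatase-related protein of neurons, had a difference of only -0.26 ± 0.22 SE (adjusted p = 0.986).

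Of the adipocyte markers 19 were tested, none was called, 15 had a difference below 0, and the median was -0.23. Lep, which encodes the adipocyte hormone leptin, ran from 8.87 through 11.13 to 12.01 in HFD and from 8.20 through 9.29 to 10.11 in DR. HFD replicates 5 and 7 lay within the DR range. Its difference was -1.67 ± 0.49 SE at an adjusted p of 0.570. Adipoq, the adipocyte hormone adiponectin, differed by -0.76 ± 0.39 SE (adjusted p = 0.986).

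The mean centred level of the 19 adipocyte markers ran from -0.55 to 0.72 in HFD (median 0.39) and from -0.55 to 0.38 in DR (median -0.17). The list held 20 markers, of which only the 19 that passed the filter on low values entered this level. Its lowest HFD libraries were replicate 5 at -0.55 and replicate 7 at -0.01. With the adipocyte and Schwann cell marker levels as covariates the difference was -1.12 for Saa3 (adjusted p = 0.000268) and -0.61 for Lrg1 (0.00917). It was -1.47 for Tph2 (0.131) and -1.51 for Oxtr (0.0630). In that fit Pck1, the first committed enzyme of gluconeogenesis and glycerol synthesis, was called higher in DR by 0.81 (adjusted p = 0.0370, limma). Pck1 is itself an adipocyte marker, so this difference is relative to a covariate that contains it. It was named after its value was seen.

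All 24 macrophage markers tested had a difference below 0 (median -0.26), with none called and 3 at an unadjusted p under 0.05, against 2% of all genes lower at that level. Lgals3, the lectin galectin-3, and Trem2, a lipid-sensing receptor of macrophages in obese fat, both differed by -0.65 ± 0.22 SE (adjusted p = 0.707 for each). Without DR replicate 1 the count was 19 of 24 and the median -0.06. The mean centred level of the markers ran from -0.53 to 0.63 in HFD and from -1.14, in DR replicate 1, to 0.45 in DR. Without that library the lowest DR level was -0.37.

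Other lists leaned in the same way on that library. Extracellular matrix genes had 36 of 37 differences below 0 (median -0.18), and 28 of 37 without it (median -0.05). Complement genes had 13 of 14 (median -0.23), and 9 of 14 without it (median -0.05). Class II antigen presentation genes had 7 of 7 (median -0.19), and 5 of 7 without it (median -0.03). Fibroblast markers had 11 of 12 (median -0.20), and 7 of 12 without it (median -0.03). No member of these 4 lists was called.

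**Figure D4:**
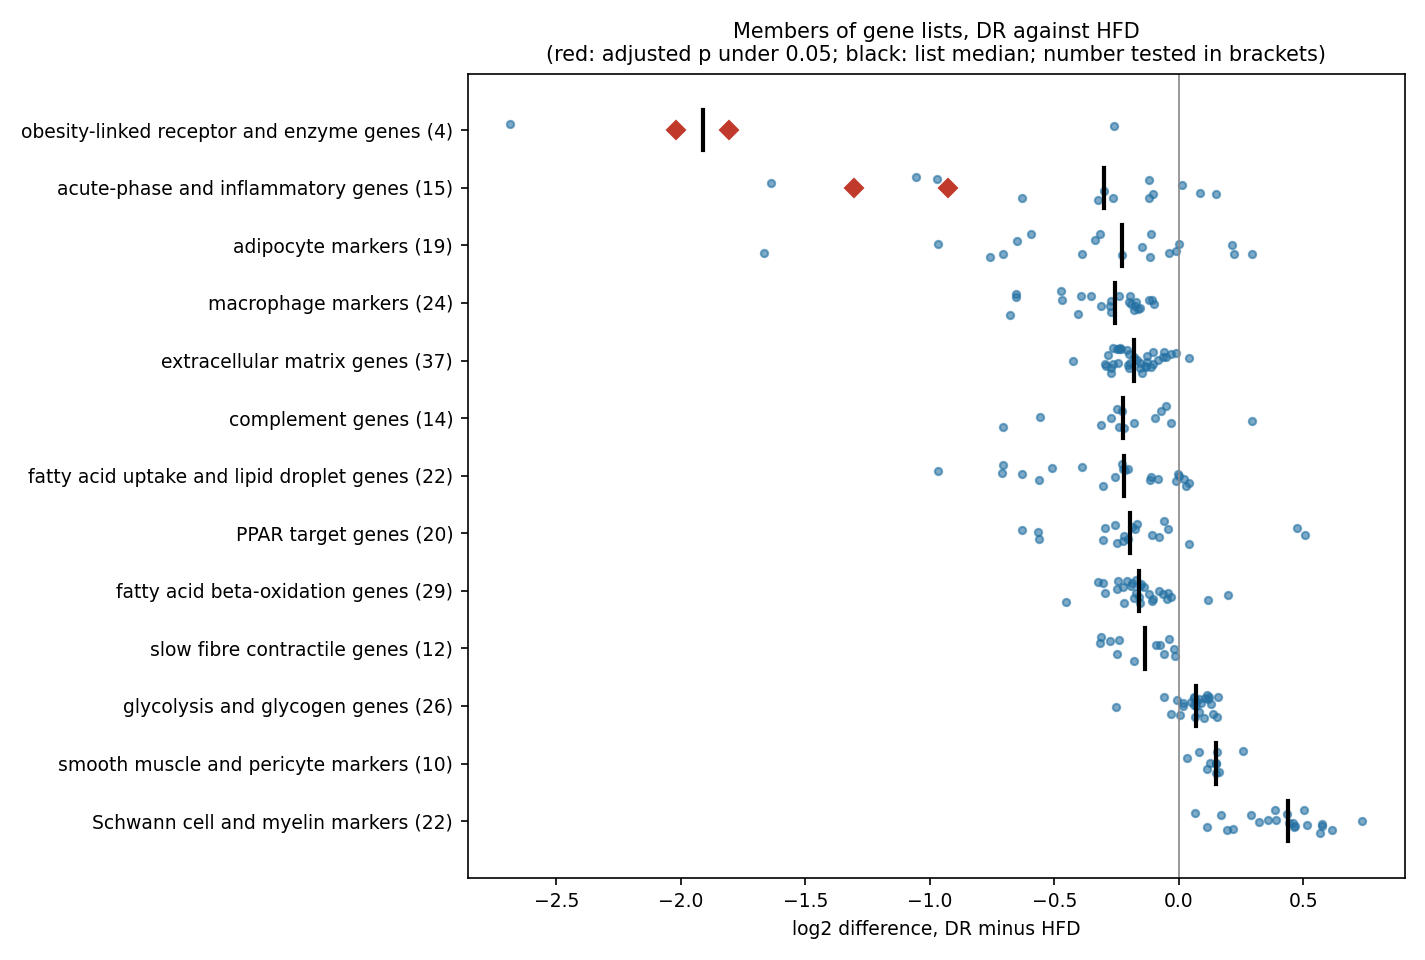
Log2 differences, DR minus HFD, of the tested members of 13 gene lists (points), with the list median as a black bar and genes with an adjusted p under 0.05 as red diamonds. Members with a large negative difference sit in the acute-phase, obesity-linked, adipocyte and lipid droplet lists, and all Schwann cell and myelin markers lie above 0.

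Genes of fatty acid handling mostly had small negative differences and none was called. Of 22 fatty acid uptake and lipid droplet genes, 18 were below 0 (median -0.22) and 8 had an unadjusted p under 0.05, all lower, against 2% of all genes. With library quality weights the median of this list was -0.09, that of the PPAR targets -0.07 and that of the beta-oxidation genes -0.08. Dgat2, which makes triglyceride, had a mean of 11.69 ± 0.45 in HFD and 10.98 ± 0.47 in DR (SD, n = 7), a difference of -0.71 ± 0.22 SE. Plin5, the lipid droplet coat protein of oxidative tissue, differed by -0.56 ± 0.21 SE, G0s2, an inhibitor of lipolysis, by -0.51 ± 0.19 SE and Plin2, another droplet coat protein, by -0.31 ± 0.12 SE. Their adjusted p-values were between 0.592 and 0.849. Of these 22 genes 7 are also adipocyte markers.

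Fabp3, the fatty acid binding protein of muscle, had HFD values of 15.23 to 15.65 (median 15.46) and DR values of 14.29 to 15.25 (median 14.80). Of the 7 DR libraries 6 lay below every HFD library, and replicate 7 lay inside the HFD range. The difference was -0.63 ± 0.23 SE (adjusted p = 0.816). Cidea, a lipid droplet fusion protein, differed by -0.71 ± 0.27 SE (adjusted p = 0.856).

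Of 29 beta-oxidation genes 27 were below 0 (median -0.16), with 5 lower and 1 higher at an unadjusted p under 0.05, against 2% and 2.96% of all genes. Slc25a20, the carnitine-acylcarnitine carrier of the mitochondrial membrane, had 11.83 ± 0.14 in HFD and 11.54 ± 0.13 in DR (mean ± SD, n = 7; difference -0.30 ± 0.10 SE, adjusted p = 0.707). Ech1 and Decr1, auxiliary enzymes for unsaturated fatty acids, differed by -0.45 ± 0.16 SE and -0.32 ± 0.13 SE. Of the 2 above 0, Ehhadh, the peroxisomal bifunctional enzyme, differed by 0.20 ± 0.08 SE. Without DR replicate 1 the count was 26 of 29 and the median -0.14.

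PPAR target genes numbered 20 tested, 8 of them shared with the beta-oxidation list, and 17 were below 0 (median -0.20). The highest members were Ucp3 and Pdk4. Ucp3, the mitochondrial uncoupling protein of skeletal muscle, ran from 12.28 through a median of 12.50 to 12.71 in HFD. In DR it ran from 12.69 through 13.11 to 13.28, and only DR replicate 6 lay inside the HFD range. The difference was 0.51 ± 0.12 SE (adjusted p = 0.251, limma), and it lay between 0.46 and 0.56 without any 1 library. With library quality weights Ucp3 passed, at 0.58 (adjusted p = 0.0123, limma). That setting lowered p for many genes. Of 15430 genes 2848 had an unadjusted p under 0.05, against 766 in the main fit, and 50 were called.

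Pdk4, the kinase that shuts off pyruvate dehydrogenase, had a median of 15.08 (14.48 to 15.37) in HFD and 15.40 (15.07 to 16.12) in DR (difference 0.47 ± 0.18 SE, adjusted p = 0.863). Angptl4, an inhibitor of lipoprotein lipase, differed by -0.17 ± 0.22 SE, and Acot1, a cytosolic acyl-CoA thioesterase that may share reads with its near copy Acot2, by -0.57 ± 0.27 SE (adjusted p = 0.986 for each).

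Fatty acid synthesis genes leaned the other way, with 14 of 19 above 0 (median 0.07) and none called. Elovl6, which elongates palmitate, differed by 0.55 ± 0.22 SE and Acaca, acetyl-CoA carboxylase, by 0.47 ± 0.20 SE (adjusted p = 0.906 and 0.915). Scd1, the stearoyl-CoA desaturase, ran from 12.31 through 14.09 to 14.95 in HFD and from 12.81 through 14.08 to 14.84 in DR, so the groups lay over each other. Its difference was 0.07 ± 0.39 SE.

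The 10 genes with the smallest p among the higher ones included 3 interferon-inducible GTPases, Tgtp1, Gbp4 and Iigp1, which act against microbes inside cells. Tgtp1, on chromosome 11, ran from 6.51 through a median of 6.76 to 6.93 in HFD and from 7.21 through 7.50 to 8.30 in DR. The groups did not overlap. The difference was 0.90 ± 0.21 SE (adjusted p = 0.242, limma; 0.99 and 0.0227 with library quality weights), with reads possibly shared with its near copy Tgtp2.

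Gbp4, on chromosome 5, ran from 7.70 through 8.10 to 8.42 in HFD and from 8.42 through 8.82 to 9.26 in DR, again without overlap (difference 0.78 ± 0.21 SE, adjusted p = 0.400). Gbp5, the third of the set without overlap and named after its values were seen, ran from 6.89 through 7.17 to 7.26 and from 7.34 through 7.55 to 7.89. Its difference was 0.42 ± 0.13 SE at an adjusted p of 0.576. Iigp1 differed by 0.53 ± 0.15 SE at an adjusted p of 0.517, with DR replicate 4 inside the HFD range. Genes whose DR libraries all lay above the HFD libraries numbered 7 (0.0454% of those tested), these 3 with Cblb, Kcnn2, Exoc5 and 2610002M06Rik, also named after their values were seen. How many genes would separate in this way with no difference between the regimens was not computed. The lack of overlap describes the values only.

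A list of such GTPases drawn up after these values were seen had 15 tested members. All 15 differences were above 0, with a median of 0.21 and 8 at an unadjusted p under 0.05, against 2.96% of all genes. The choice of the list followed the values, so the count describes them only. Of these genes 10 had an entry among the RefSeq promoters, where 9 held the ISRE-like letters and 6 the GAS letters, against 2.98% and 7.02% of all windows. The list was made of interferon-inducible genes, so these counts say nothing on the diet. Members with small differences, such as Gbp2 (0.12) and Irgm1 (0.13), held the ISRE-like letters too. The longer list of 25 interferon-stimulated genes had 20 above 0, a median of 0.07 and none called. Without DR replicate 1, the lowest DR library of that list, 23 of 25 were above 0 and the median was 0.13.

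**Figure D5:**
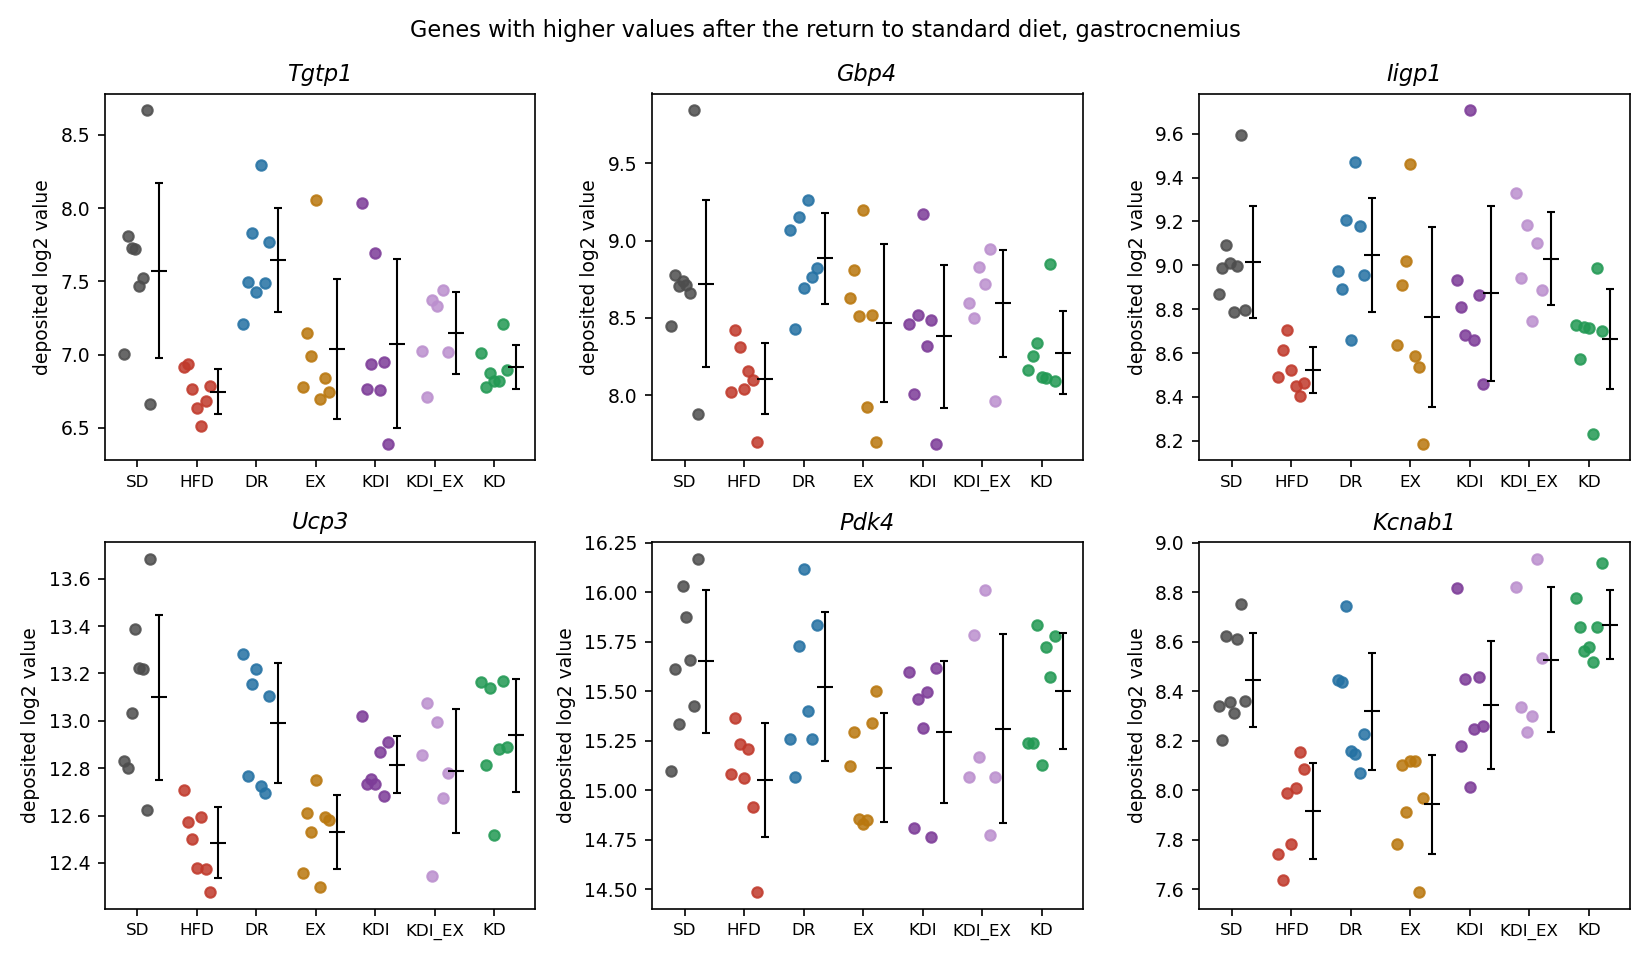
Deposited log2 values of Tgtp1, Gbp4, Iigp1, Ucp3, Pdk4 and Kcnab1 in each of the 49 muscle libraries (points), with the mean and SD of each regimen beside them in black. HFD libraries lie low and close together for Tgtp1, Iigp1 and Ucp3, and DR libraries lie nearer to the SD libraries, among which replicate 7 is far above the others for Gbp4 and Iigp1.

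The other genes of this group of 10 were Appl2, Nek5, Arl14ep, Txnip, Kcnab1 and Cyb5r2. Txnip, an inhibitor of glucose uptake that is induced by glucose, ran from 14.78 through 14.93 to 15.01 in HFD and from 14.99 through 15.18 to 15.39 in DR. Only DR replicate 2 lay inside the HFD range. The difference was 0.27 ± 0.07 SE (adjusted p = 0.517). Appl2, an endosomal adaptor of adiponectin and insulin signalling, differed by 0.18 ± 0.05 SE (adjusted p = 0.304). Kcnab1, a potassium channel subunit, differed by 0.40 ± 0.11 SE, Cyb5r2, a cytochrome b5 reductase, by 0.47 ± 0.14 SE, the kinase gene Nek5 by 0.30 ± 0.08 SE and Arl14ep by 0.16 ± 0.04 SE. Their adjusted p-values ran from 0.400 to 0.525.

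All 22 Schwann cell and myelin markers tested had a difference above 0, with a median of 0.44, none called and 5 at an unadjusted p under 0.05, all higher, against 2.96% of all genes. Mag, a glycoprotein of myelin, differed by 0.46 ± 0.19 SE (adjusted p = 0.906). The mean centred level of these markers ran from -0.56 to 0.36 in HFD and from -0.37 to 0.51 in DR, so the groups overlapped. Without DR replicate 1, the lowest DR library, the median was 0.53 and 14 had an unadjusted p under 0.05, against 2.53% of all genes higher at that level in the same fit.

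Lists of fibre genes had small median differences, which does not show that the groups were alike. Slow fibre contractile genes had 12 of 12 differences below 0 (median -0.14, 0.12 with library quality weights), and Myh7, the slow myosin, differed by -0.04 ± 0.68 SE. Its values ran from 12.33 to 15.08 in HFD and from 11.73 to 15.41 in DR, a spread far wider than the difference. Fast fibre genes had 12 of 15 above 0 and a median of 0.03, which was -0.16 with quality weights and -0.03, with 5 of 15 above 0, without DR replicate 1. The median was 0.00 for atrophy genes, -0.05 for nuclear oxidative phosphorylation genes and 0.07 for glycolysis and glycogen genes, and none of these genes was called. Of the nuclear oxidative phosphorylation genes 40 of 51 were below 0, and 28 of 51 without DR replicate 1 (median -0.01). Of 24 insulin signalling and glucose uptake genes 16 were above 0 (median 0.02), and Slc2a4, the insulin-regulated transporter GLUT4, differed by 0.20 ± 0.08 SE (adjusted p = 0.922).

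Set against mice that stayed on the standard diet, DR muscle had no gene at an adjusted p under 0.05 (0% of those tested) and 219 at an unadjusted p under 0.05 (1.42%, limma). A test that finds no gene does not show that the groups are alike, so the intervals matter. For Saa3 the 95% interval of DR minus SD ran from -0.46 to 0.23, for Lrg1 from -0.57 to 0.16, for Tph2 from -0.79 to 0.55 and for Oxtr from -1.05 to 0.54. For Ucp3 it ran from -0.35 to 0.13 and for Tgtp1 from -0.35 to 0.49. SD replicate 1 was the highest SD library for 9 of the 10 lower genes, and without it the count of genes past the adjusted threshold was again 0. Without that library, a setting chosen for these genes after the data were seen, the DR minus SD difference was -0.02 for Saa3 (-0.36 to 0.32), -0.10 for Lrg1 (-0.46 to 0.26), 0.12 for Tph2 (-0.53 to 0.76) and 0.05 for Oxtr (-0.69 to 0.79), so the last 2 changed sign. Itgax differed from SD by -0.52 (-0.91 to -0.12, adjusted p = 1.0), and by -0.27 (-0.55 to 0.02) without SD replicate 1. The HFD minus SD difference, which shares its HFD libraries with the main comparison, was 1.19 for Saa3, 1.68 for Tph2, 1.76 for Oxtr, 0.72 for Lrg1, -0.61 for Ucp3 and -0.83 for Tgtp1.

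The standard and the ketogenic diet after the same high-fat period were also compared directly. DR against KDI gave 8 genes at an adjusted p under 0.05 (0.0518% of those tested), 1 higher (0.00648%) and 7 lower (0.0454%) in DR (limma). None of the 4 genes above was among them. The Saa3 difference was -0.02 (95% interval -0.37 to 0.34), that of Tph2 -0.10 (-0.79 to 0.60), that of Oxtr -0.76 (-1.58 to 0.06) and that of Lrg1 -0.46 (-0.84 to -0.08). Cyp1a1, a xenobiotic-metabolising cytochrome P450, was lower in DR than in KDI by -1.89 ± 0.25 SE (adjusted p = 1.41e-05), and Acot1 by -1.42 ± 0.27 SE (adjusted p = 0.0111). Against HFD the Cyp1a1 difference was 0.27 ± 0.25 SE.

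Against EX mice, which kept the high-fat diet and ran, DR muscle had no gene at an adjusted p under 0.05 (0%) and 1071 at an unadjusted p under 0.05 (6.94%, limma). Lrg1 differed by -0.79 (95% interval -1.17 to -0.41, adjusted p = 0.47), Tph2 by -1.28 (-1.97 to -0.58), Oxtr by -1.47 (-2.29 to -0.65) and Saa3 by -0.52 (-0.87 to -0.16). The median Tph2 level was 4.87 in EX, between 3.72 in DR and 5.91 in HFD, and EX libraries spread from 3.63 to 6.29.

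At the edge of the filter, 55 genes reached the threshold in exactly 6 of the 14 libraries and were tested, and 59 did so in exactly 5 and were not. Among the latter were 4 genes present at that level in 5 HFD libraries and no DR library, Cdca7l, Lipf, Ffar4 and Gm17344, and 1 in 5 DR libraries and no HFD library, Slc9a3. Lipf, a lipase, had HFD values of 2.68 to 4.60 (median 3.85) and DR values of 2.63 to 3.11 (median 2.69), and Ffar4, a receptor for long-chain fatty acids, 2.99 to 3.76 (median 3.53) and 2.92 to 3.30 (median 3.21).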

How the data were processed

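Messenger RNA of muscle was sequenced from both ends after TRIzol extraction and a NEBNext Ultra library kit, per the labels' protocols, which do not state strand. The build GRCm38 and the tools STAR 2.7.8a, RSEM 1.3.3, DESeq2, cutadapt 2.3, MultiQC 1.7 and FastQC 0.11.8 are listed in the submitters' processing notes, with no role or order. The authors deposited 1 log2 value per gene symbol and library. Their transform is not given in the sources used here, and if it was a regularised log, differences of low genes are shrunken by an unknown amount. Depth is unknown and no counting error was computed.

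Groups came from the labels. Replicate numbers follow accession order and pair nothing, and no batch is labelled. The deposited log2 values were fitted with limma 3.58.1 (R 4.3.3, statmod 1.5.0) over 49 muscle libraries and 7 regimens, with a trended, robust prior, after a filter at a linear value of 10 in 6 of the 14 libraries. A call is an adjusted p (Benjamini-Hochberg, over 15430 genes) under 0.05. SE is the fit's standard error and intervals are 95%. The script was tested on simulated data. Positions came from GENCODE M21, in which 15166 of the tested symbols were found.

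Named genes were all called, the 10 with the smallest p in each direction, 19 chosen genes and up to 3 per list with the smallest p. Members and the 40 lists were chosen with earlier results of these data known. A list's level in a library is the mean over its genes of the value less the gene's mean. Some genes are not reported here.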

Additional observations from a re-analysis of the deposited data

Results flagged for a closer look

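Among 99 groups of 7 or 8 muscle libraries of the named genes (a gene in HFD, DR or SD), 20 held a library whose gap to the next was large for the range of its group by Dixon's criterion at 95%. Chance gives about 1 in 20 groups where these are independent and normally distributed. Here many genes were picked by their p and several vary together over the same libraries, so that share is no fair measure. In 9 of the 20 the library was SD replicate 1. It stood highest at 3.13 for Saa3, 5.50 for Tph2, 7.03 for Oxtr, 9.43 for Lrg1, 6.75 for Itgad, 7.14 for Ubd, 6.68 for Slc5a7, 7.83 for Ccn5 and 3.73 for Plppr4, and its mean adipocyte marker level was 0.82. SD replicate 7 stood highest for 2 interferon-inducible GTPases, at 9.84 for Gbp4 and 9.59 for Iigp1.

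Within DR, replicate 6 stood highest for Saa3 at 2.51 and Ubd at 4.47, replicate 7 for Plppr4 at 4.97 and replicate 1 for Nek5 at 4.43. DR replicate 1 was lowest for Itgax at 4.35 and replicate 2 lowest for Myh7 at 11.73. Within HFD, replicate 2 stood highest for Arl14ep at 8.47 and replicate 3 for Cyp1a1 at 5.76, and replicate 5 was lowest for Txnip at 14.78. None of these libraries was left out of the main values.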

How the results depend on the processing

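The 4 genes lower in DR than in HFD became 0 in a fit of the 14 libraries alone, 0 with the filter at a linear value of 50, which left Saa3, Tph2 and Oxtr untested, 50 (31 higher and 19 lower, with all 4 among them) with library quality weights, and 1 without DR replicate 1 and KDI_EX replicate 6. Leaving out 1 HFD or DR library gave 1 to 9 genes. The count was 3 with no filter (2 lower, Saa3 and Tph2, and Gm34474 higher by 0.20) and 3 with adipocyte and Schwann cell covariates (2 lower, Saa3 and Lrg1, and Pck1 higher), and 4 with quantile normalisation, median centring, the filter over all 49 libraries or no trend. The count of 0 for DR against SD became 2 with quality weights, 1 without DR replicate 1 and KDI_EX replicate 6, and 0 to 1 over fits without 1 library. Of 783 differences of named genes under alternatives, 708 kept their direction and side of the threshold, 45 lost and 17 gained a call, and 13 changed sign. Most of these genes were never called, and only the 4 called ones could lose a call. Saa3 was called in 22 of 23 alternatives, Tph2 in 9 of 23, Oxtr in 8 of 23 and Lrg1 in 9 of 24. With quality weights Tgtp1, Ucp3, Appl2, Arl14ep, Txnip and Cyb5r2 were called higher, and Itgad, Ubd, Slc5a7 and Ccn5 lower. Without SD replicate 1 the DR minus SD difference of Tph2 was 0.12, of Oxtr 0.053 and of Tgtp1 -0.0095, each of the other sign. Angptl4 was 0.029 and Myh7 0.28 with quality weights, and Myh7 0.10 with the covariates. Without 1 library Scd1 ran from -0.19 to 0.25 and Myh7 from -0.36 to 0.37. Of 959 list medians 49 changed sign. The causes were not tested. No paired analysis was possible because the replicate numbers follow accession order and the labels pair no libraries. Signal over background cannot be judged without counts.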

Other observations

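Lists not described above held no called gene. Circadian clock genes had a median difference of 0.05 over 19 genes, and Nr1d1, the clock repressor REV-ERB alpha, differed by 0.19 ± 0.09 SE (adjusted p = 0.974). Cholesterol synthesis genes had a median of -0.03 over 21 genes, and Hmgcs1, which makes HMG-CoA, differed by -0.21 ± 0.08 SE (adjusted p = 0.857). Glutathione and oxidative stress genes had a median of -0.08 over 23 genes, with Sod3, the extracellular superoxide dismutase, at -0.53 ± 0.22 SE (adjusted p = 0.906). Smooth muscle and pericyte markers had 10 of 10 differences above 0 (median 0.15), and endothelial markers 10 of 12 (median 0.10). Erythrocyte markers had 6 of 6 below 0 (median -0.54), and 5 of 6 without DR replicate 1 (median -0.26). Mast cell markers had 8 of 10 below 0 (median -0.12) and, without that library, 3 of 10 (median 0.05). Neutrophil markers had 3 of 4 below 0 and lymphocyte markers 4 of 4, and each had 3 of 4 without DR replicate 1. Without it the medians of immediate early and cell cycle genes, given next, were 0.03 and -0.05. The medians of the remaining lists were 0.03 for skeletal muscle markers, 0.02 for satellite cell genes, 0.01 for TCA cycle genes, 0.04 for branched-chain amino acid breakdown, 0.07 for mitochondrially encoded genes, -0.07 for ketone body genes, -0.03 for denervation genes, -0.03 for immediate early genes, -0.10 for cell cycle genes, -0.06 for heat shock genes and 0.03 for exercise-responsive genes.

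In sciatic nerve of the same regimens, whose values were transformed apart from muscle and are given with no test, Saa3 ran from 4.18 through 7.16 to 8.65 in HFD (n = 6) and from 4.09 through 4.30 to 5.89 in DR (n = 7). Tph2 ran from 4.85 through 8.71 to 9.93 in HFD nerve and from 5.06 through 6.10 to 7.26 in DR nerve. Oxtr had medians of 9.63 and 7.92, Lrg1 of 11.13 and 10.34, Itgad of 8.98 and 4.78, and Tgtp1 of 7.43 and 7.87. For Ucp3 the nerve medians were 9.21 in HFD and 9.04 in DR. Lep had 13.40 and 12.06, and Adipoq 13.77 and 13.59, but the Adipoq means went the other way, at 13.54 in HFD and 13.75 in DR. Adig, whose difference in muscle was negative, had nerve medians of 7.87 in HFD and 8.28 in DR.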
